A study of Mus musculus with 18 samples.

Results

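The genes examined were 10 that handle zinc and iron in the cell. They were the metallothioneins Mt1 and Mt2, the metal sensor Mtf1, the zinc exporter Slc30a1, the ferritin subunits Fth1 and Ftl1, the iron importers Tfrc and Slc11a2, and the iron sensors Ireb2 and Aco1. They were chosen by symbol from the 23420 rows of the count table, and all 10 were among the 11762 genes that passed the expression filter. The cells were NIH-3T3, an established line of mouse fibroblasts, as wild-type (WT) cells and as a line in which Nrf1 had been knocked out with CRISPR/Cas9 (Nrf1-KO). Both lines grew in the same medium with serum and received DMSO as the vehicle or 200 nM carfilzomib (CFZ), an irreversible inhibitor of the proteasome, for 6 h or 24 h. The design therefore had 6 groups of 3 libraries, which the study calls biological replicates. The sources do not say how long DMSO was given, how many clones the Nrf1-KO line came from, or whether replicates were cultured on separate days.

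Total counts ran from 8333148 to 23917081 per library, and each of the 18 libraries was most like another of its own group. The gene that the study calls Nrf1 has the symbol Nfe2l1, and it ran from 437.3 to 650.4 CPM (counts scaled to the library's total and its TMM factor) in the WT libraries and from 174.3 to 427.0 in the Nrf1-KO libraries. Within each treatment its Nrf1-KO range was below its WT range. All 8 fibroblast markers examined were detected in every library, and their summed level ran from 32820 to 35670 CPM in WT DMSO and from 8090 to 8384 in WT cells at 24 h of CFZ. In Nrf1-KO cells it ran from 27360 to 33630 in DMSO and from 10820 to 12850 at 24 h. The summed markers of epithelial cells (4), leukocytes (3), endothelial cells (3) and adipocytes (3) reached at most 13.03, 10.1, 3.828 and 0.8245 CPM in any library, and Epcam, Krt18 and Plin1 were at 0 in all 18. In RNA from whole cultures, fewer cells expressing a gene and less of its RNA per cell cannot be told apart. The 3 leukocyte markers summed to at most 1.973 CPM in DMSO, and at 24 h of CFZ to between 9.352 and 10.1 in WT and between 6.216 and 6.62 in Nrf1-KO cells. The endothelial sum went from at most 0.591 CPM in DMSO to between 2.541 and 3.471 in WT and between 3.38 and 3.828 in Nrf1-KO cells at 24 h. The epithelial sum, nearly all of it Cdh1, went from between 5.905 and 6.364 in WT DMSO and between 10.82 and 13.03 in Nrf1-KO DMSO to at most 0.8133 CPM at 24 h. The part that these marker shifts had in the values below was not tested.

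Zinc and iron are held within narrow limits in cells, because both are needed by many enzymes and both are harmful in excess. Free zinc binds MTF1, which moves to the nucleus and binds metal response elements (MREs) before its target genes, among them Mt1 and Mt2, whose small cysteine-rich proteins bind zinc and copper, and Slc30a1, whose product carries zinc out across the plasma membrane. Iron enters bound to transferrin through the receptor encoded by Tfrc, crosses the endosome membrane through the divalent metal transporter encoded by Slc11a2, and is stored inside shells of the ferritin heavy (Fth1) and light (Ftl1) chains. When iron is low, the iron regulatory proteins IRP1 (Aco1) and IRP2 (Ireb2) bind hairpins called iron-responsive elements (IREs). An IRE in the 5′ UTR of ferritin mRNAs then holds back their translation, and IREs in the 3′ UTR of the Tfrc mRNA protect it from decay. With iron present, IRP1 becomes a cytosolic aconitase, and IRP2 is marked for the proteasome by the ubiquitin ligase subunit FBXL5. Fth1, Ftl1 and Mt1 are also known to be induced through the motif called ARE (antioxidant response element), to which both NRF1 and NRF2 bind. The libraries measured mRNA only, and neither metal nor protein was measured.

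The IREs are shown because the ferritin genes and Tfrc carry the same element at opposite ends of the mRNA. Searching the annotated transcripts (GENCODE M21, GRCm38) for a CAGTG loop on a 5-base stem with a bulged C found 1 core in the 5′ UTR of Fth1, 1 in the 5′ UTR of Ftl1 and 4 in the 3′ UTR of Tfrc, with the 6-base loop in capitals. Such a core stood in 127 of the 10759 tested genes that have a protein-coding transcript (1.18%).
Fth1 5′ UTR, chr19:9982733-9982759, plus strand: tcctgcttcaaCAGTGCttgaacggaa
Ftl1 5′ UTR, chr7:45459780-45459806, minus strand: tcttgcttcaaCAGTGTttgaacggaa
Tfrc 3′ UTR, chr16:32631220-32631246, plus strand: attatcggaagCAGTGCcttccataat
Tfrc 3′ UTR, chr16:32631599-32631625, plus strand: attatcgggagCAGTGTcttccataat
Tfrc 3′ UTR, chr16:32631664-32631690, plus strand: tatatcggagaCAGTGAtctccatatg
Tfrc 3′ UTR, chr16:32631711-32631737, plus strand: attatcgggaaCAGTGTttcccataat
No core of this form was found in the other 7 genes. This says only that the loop with all 5 stem bases paired was not in the protein-coding transcripts searched.

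The bases before the starts of Mt1, Mt2 and Slc30a1 are shown because these 3 genes share the MRE as a known element and differed in their response to CFZ. The sequences are 250 bases that precede the RefSeq start (GRCm38.p6), and capitals mark the MRE core (TGCACNC or TGCGCNC on either strand).
Mt1, chr8:94178839-94179088, plus strand: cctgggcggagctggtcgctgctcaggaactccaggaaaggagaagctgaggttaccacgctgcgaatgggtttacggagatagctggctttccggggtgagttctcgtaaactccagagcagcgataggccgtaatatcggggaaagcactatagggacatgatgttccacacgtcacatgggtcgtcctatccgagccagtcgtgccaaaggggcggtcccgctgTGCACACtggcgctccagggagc
Mt2, chr8:94172368-94172617, plus strand: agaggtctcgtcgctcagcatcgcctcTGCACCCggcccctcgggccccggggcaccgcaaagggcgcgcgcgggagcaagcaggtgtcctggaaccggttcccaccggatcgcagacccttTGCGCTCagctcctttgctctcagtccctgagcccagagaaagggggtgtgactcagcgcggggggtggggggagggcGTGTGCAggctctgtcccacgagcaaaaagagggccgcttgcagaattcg
Slc30a1, chr1:191906531-191906780, plus strand: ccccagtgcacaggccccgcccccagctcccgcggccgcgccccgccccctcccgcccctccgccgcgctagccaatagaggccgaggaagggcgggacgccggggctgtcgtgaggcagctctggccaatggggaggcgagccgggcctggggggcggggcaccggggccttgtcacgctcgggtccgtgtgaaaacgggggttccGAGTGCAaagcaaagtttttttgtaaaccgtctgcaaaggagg
In windows of 300 bases that also held the 50 bases after the start, the core occurred 4 times for Mt2, 3 times for Mt1 and 2 times for Slc30a1. The cores at positions 3 and 21 of Mt1, 5 of Mt2 and 31 of Slc30a1 lay after the start and are not in the printed bases. These counts depend on the annotated start and need not be those of the whole promoter. It stood in 25.7% of the 32851 such RefSeq windows, and 1.97% held 3 or more. Of the other genes, Aco1 held 1 core, a Tfrc window held 2 that overlap each other, and the windows of Mtf1, Fth1, Ftl1 and Ireb2 held none, with Slc11a2 not matched. The ARE core (TGACNNNGC on either strand) stood in 12.4% of all windows and in those of Mt2 (tgactcagc) and Slc30a1, where it overlapped no MRE core. The windows of Mt1, Fth1 and Ftl1 held no ARE core, which says only that these letters were not in those 300 bases. Sites further from the start were not searched.

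In GENCODE M21, Mt2 (chromosome 8, 94172664 to 94173568) and Mt1 (chromosome 8, 94179082 to 94180327) lie next to each other on the plus strand. Gm45774, which has no row in the table, covers 73.5% of the exonic bases of Mt2 on the opposite strand. For Ftl1 (chromosome 7, 45457944 to 45459884, minus strand), 52.1% of the read-length stretches of the transcript also occur in the pseudogenes Ftl1-ps1, Ftl2-ps and Gm15590, and Gm10252 overlaps 26.5% of its exonic bases on the opposite strand. Opposite-strand overlap was 8.92% for Slc30a1, 8.09% for Mtf1 and 6.33% for Slc11a2, and 0% for Mt1, Fth1, Tfrc, Ireb2 and Aco1. Whether reads were counted by strand is not given in the sources used here, so the counts of Ftl1 and Mt2 are less certain than those of Fth1 and Mt1. Divided by the length of 1 annotated transcript, the mean level in WT DMSO was 1796 CPM per kb for Ftl1, 1314 for Fth1, 421.3 for Mt1 and 320.6 for Mt2. It was 24.35 CPM per kb for Ireb2, 23.31 for Aco1, 12.96 for Slc11a2, 12.79 for Tfrc, 6.303 for Slc30a1 and 5.197 for Mtf1. The storage and buffering genes thus stood above the transporters and sensors in this length-scaled level. Fth1 and Ftl1 together took between 0.305% and 0.316% of all counts in WT DMSO and between 0.533% and 0.552% in WT cells at 24 h of CFZ. In Nrf1-KO cells this share ran from 0.292% to 0.302% in DMSO and from 0.491% to 0.512% at 24 h.

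**Figure D1:**
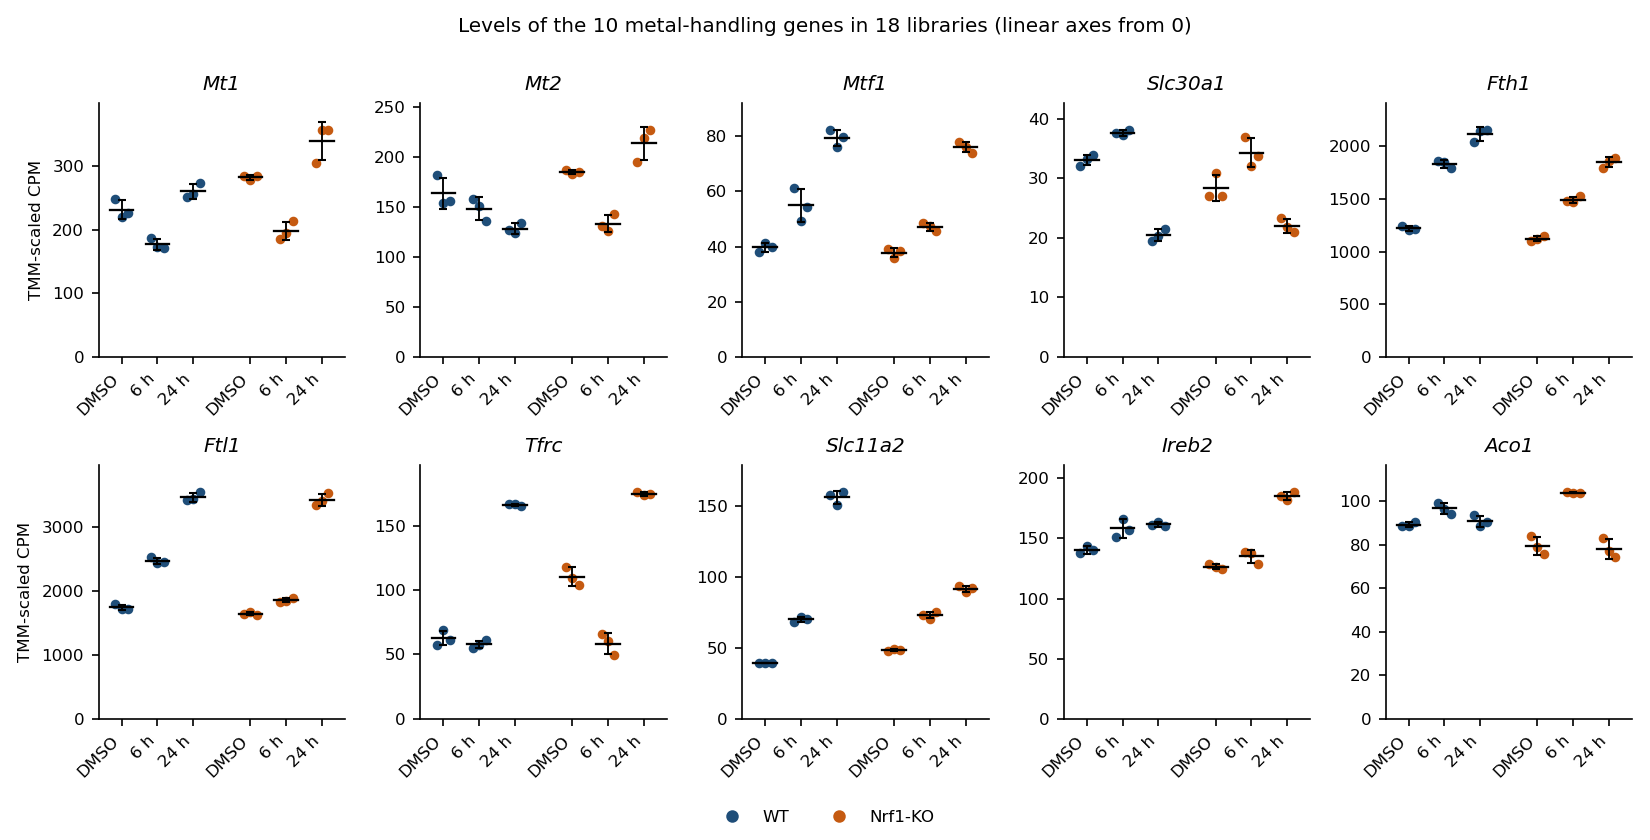
TMM-scaled CPM (vertical axes, linear from 0) of the 10 genes in the 18 libraries, by line and treatment. Points are libraries, long bars the mean and whiskers the SD of 3 libraries. At 24 h of CFZ mean Ftl1 was 3462 CPM in WT and 3421 in Nrf1-KO cells, while Slc11a2 reached 156.1 CPM in WT and 91.58 in Nrf1-KO cells.

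CFZ changed most of the 10 genes in both lines, by an adjusted p-value under 0.05 in edgeR's quasi-likelihood test with no minimum fold. As the same held for most genes in the table, the counts are given beside the share of all tested genes called. In WT cells at 6 h, 7 genes were higher and 2 lower, where 35.6% of all genes were higher and 36.2% lower. In WT cells at 24 h, 7 were higher and 2 lower (43.2% and 40.5% of all genes), and between 6 h and 24 h 6 were higher and 3 lower (36.9% and 35.4%). In Nrf1-KO cells at 6 h, 7 were higher and 3 lower (34.5% and 35.0%), at 24 h 8 were higher and 1 lower (44.4% and 41.1%), and between 6 h and 24 h 8 were higher and 2 lower (38.7% and 38.3%). The median log2 fold change of the 10 genes at 24 h was 0.50 in WT and 0.61 in Nrf1-KO cells, and over all genes it was 0.02 and 0.03. The median size of the change, whatever its sign, was 0.74 and 0.61 beside 0.56 and 0.58 over all genes. A log2 fold change against DMSO of at least 1 was reached at 24 h only, by Slc11a2 and Tfrc in WT cells and by Mtf1 and Ftl1 in Nrf1-KO cells. In WT cells Mtf1 (0.999) and Ftl1 (0.994) stood just under it, beside 1.006 and 1.062 in Nrf1-KO cells.

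Between the lines, the Nrf1-KO level was higher than the WT level for 4 of the 10 and lower for 5 in DMSO (25.7% and 29.1% of all genes). At 6 h of CFZ 2 were higher and 5 lower (30.5% and 30.8%), and at 24 h 3 were higher and 3 lower (35.6% and 36.4%). The response to CFZ itself was compared by the interaction, the log2 fold change in Nrf1-KO cells minus that in WT cells. It was more positive in Nrf1-KO cells for 1 gene at 6 h and more negative for 5 (19.8% and 18.4% of all genes), and at 24 h more positive for 3 and more negative for 2 (29.7% and 30.0%). Scaling by library size alone lowered the share of higher genes among all genes called from 49.6% to 35.4% in WT cells at 6 h, from 49.7% to 36.4% in Nrf1-KO cells at 6 h and from 52% to 41.6% in Nrf1-KO cells at 24 h. It raised that share from 46.9% to 57.7% between the lines in DMSO and from 49.8% to 60.8% at 6 h, and upper-quartile scaling gave 37.9% in WT cells at 6 h. Among called interactions, the share that was more positive moved from 51.8% to 60.3% at 6 h with upper-quartile scaling and from 49.8% to 40% at 24 h with library size alone. The median of all genes moved with it, by library size alone to -0.15 in WT cells at 6 h, -0.12 in Nrf1-KO cells at 6 h and -0.15 in Nrf1-KO cells at 24 h, and by upper-quartile scaling to -0.13 and -0.11 in WT cells at 6 h and 24 h. Changes smaller than these shifts are named below where they lost their call.

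**Figure D2:**
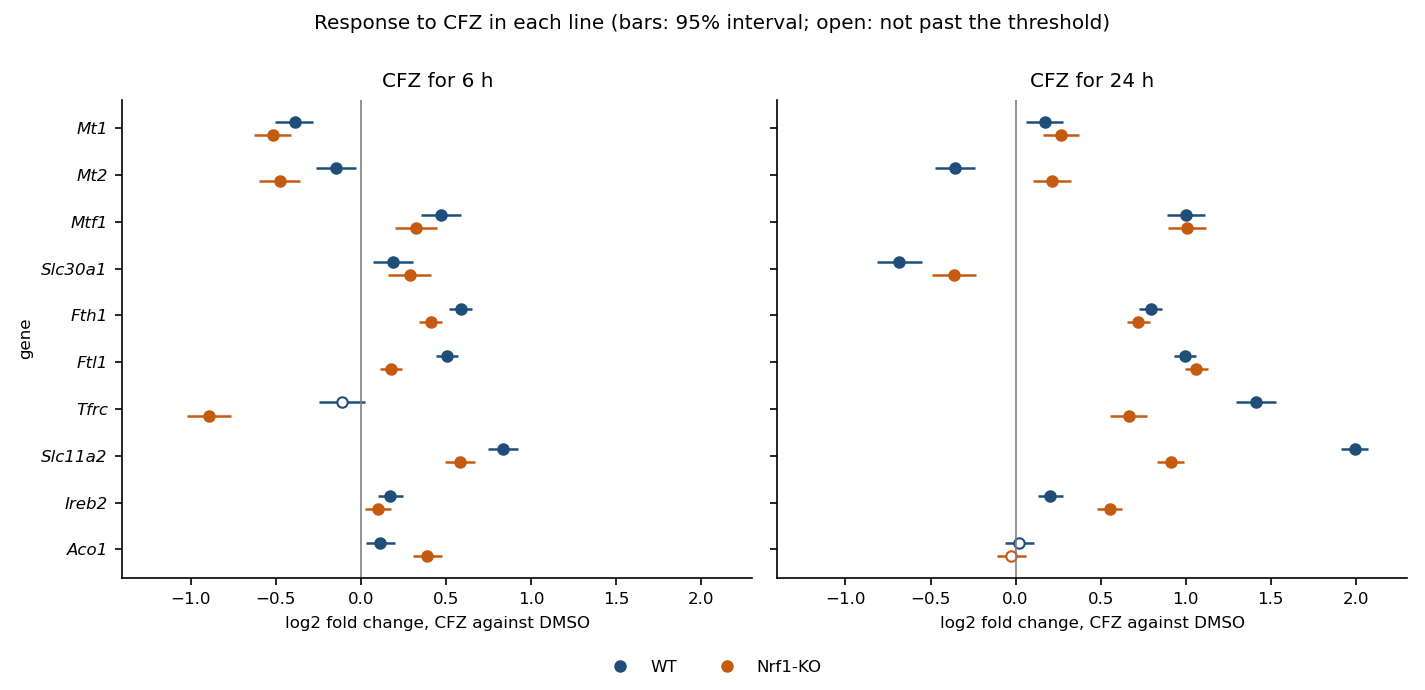
Log2 fold change of CFZ against DMSO (horizontal axis) for each of the 10 genes in WT and Nrf1-KO cells, at 6 h (left) and 24 h (right). Points are edgeR estimates with 95% intervals from 3 libraries a group, and open points did not pass the threshold. Mt2 at 24 h was lower in WT (-0.36) and higher in Nrf1-KO cells (0.21), and Slc11a2 had the largest rise in WT cells (1.99).

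The metallothioneins fell at 6 h in both lines, and at 24 h they moved in opposite directions in WT cells and both rose in Nrf1-KO cells. Mt1 stood at 248.5, 220.1 and 225.3 CPM in the WT DMSO libraries, at 187.2, 172.4 and 170.7 at 6 h of CFZ and at 251.9, 255.4 and 274.0 at 24 h. The Nrf1-KO libraries held 283.8, 277.8 and 284.1 CPM in DMSO, 184.9, 195.1 and 213.3 at 6 h and 304.3, 356.6 and 356.6 at 24 h. In each line all 6 h libraries lay below, and all 24 h libraries above, the DMSO libraries. The log2 fold change of Mt1 at 6 h was -0.39 in WT cells (standard error 0.055, adjusted p = 1.77e-07) and -0.52 in Nrf1-KO cells (standard error 0.054, adjusted p = 6.41e-10). Its rise at 24 h was 0.17 in WT (adjusted p = 0.00387) and 0.27 in Nrf1-KO cells (adjusted p = 1.86e-05). Scaled by library size alone, the rise was 0.07 in WT cells (adjusted p = 0.224) and 0.09 in Nrf1-KO cells (adjusted p = 0.108), neither past the threshold, and upper-quartile scaling gave 0.04 in WT cells (adjusted p = 0.555). The interaction was -0.13 at 6 h (95% interval -0.28 to 0.03, adjusted p = 0.198), past the threshold without WT DMSO replicate 1 (-0.21, adjusted p = 0.0348) and without the expression filter (-0.15, adjusted p = 0.0296). That of 24 h was 0.10 (-0.05 to 0.25, adjusted p = 0.269), and 0.17 without Nrf1-KO CFZ 24 h replicate 1 (adjusted p = 0.0226).

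Mt2 stood at 181.8, 153.9 and 155.8 CPM in WT DMSO, at 158.4, 151.2 and 135.5 at 6 h and at 126.6, 123.8 and 134.2 at 24 h. All 24 h libraries lay below all DMSO libraries, and the 6 h libraries overlapped the DMSO libraries. In Nrf1-KO cells Mt2 stood at 186.7, 182.9 and 184.6 CPM in DMSO, at 131.2, 126.0 and 142.7 at 6 h and at 195.3, 219.3 and 227.2 at 24 h, in 3 ranges that did not overlap. At 24 h the log2 fold change was -0.36 in WT cells (standard error 0.059, adjusted p = 1.87e-06) and 0.21 in Nrf1-KO cells (standard error 0.055, adjusted p = 0.000702). The interaction of 0.57 (95% interval 0.41 to 0.73, adjusted p = 3.54e-07) put the difference between the lines past the threshold. The rise in Nrf1-KO cells was not past the threshold with upper-quartile scaling (0.11, adjusted p = 0.0802) or library size alone (0.03, adjusted p = 0.591). At 6 h the fall was -0.48 in Nrf1-KO cells (adjusted p = 1.93e-08) and -0.15 in WT cells (adjusted p = 0.0254), with an interaction of -0.33 (adjusted p = 0.00179). The fall in WT cells at 6 h was not past the threshold without WT DMSO replicate 1 (-0.05, adjusted p = 0.417) or without WT CFZ 6 h replicate 3 (-0.08, adjusted p = 0.277).

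The ratio of Mt1 to Mt2 counts within a library does not depend on scaling. Its mean in WT cells was 1.41 ± 0.0417 (SD, n = 3) with the vehicle, 1.19 ± 0.0604 at 6 h and 2.03 ± 0.0376 after 24 h, in ranges that did not overlap. The Nrf1-KO means were 1.53 ± 0.0111, 1.48 ± 0.0706 and 1.58 ± 0.0365, and the DMSO and 6 h ranges overlapped. An exact permutation test (two-sided) gave p = 0.1 for 24 h against DMSO in each line, the smallest that 3 against 3 libraries allow, and p = 0.5 for 6 h against DMSO in Nrf1-KO cells. The change of the ratio on the log2 scale at 24 h was 0.52 in WT and 0.05 in Nrf1-KO cells. The strand of the reads counted for Mt2 bears on this ratio, and its part was not tested.

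In DMSO both metallothioneins were higher in Nrf1-KO than in WT cells, Mt1 by a log2 difference of 0.28 (adjusted p = 2.74e-05) and Mt2 by 0.17 (adjusted p = 0.0106). The difference of Mt2 was not past the threshold without WT DMSO replicate 2 (0.13, adjusted p = 0.0888) or replicate 3 (0.13, adjusted p = 0.0714). At 24 h of CFZ the differences were 0.38 for Mt1 (adjusted p = 1.21e-07) and 0.74 for Mt2 (adjusted p = 6.72e-13), with no overlap of the lines for either gene. At 6 h they were 0.16 for Mt1 (adjusted p = 0.0177) and -0.16 for Mt2 (adjusted p = 0.0237). Mt1 lost that call without WT CFZ 6 h replicate 2 (0.13, adjusted p = 0.0837), WT CFZ 6 h replicate 3 (0.12, adjusted p = 0.103) or Nrf1-KO CFZ 6 h replicate 3 (0.10, adjusted p = 0.14). Mt2 lost it without WT CFZ 6 h replicate 1 (-0.12, adjusted p = 0.122), WT CFZ 6 h replicate 2 (adjusted p = 0.0583), Nrf1-KO CFZ 6 h replicate 1 (adjusted p = 0.0657) or Nrf1-KO CFZ 6 h replicate 2 (-0.12, adjusted p = 0.136), and with upper-quartile scaling (-0.11), library size alone (-0.09) and DESeq2 (-0.14). The other metallothionein genes were at the floor, Mt3 with 1 count and Mt4 with 0 counts over the 18 libraries.

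**Figure D3:**
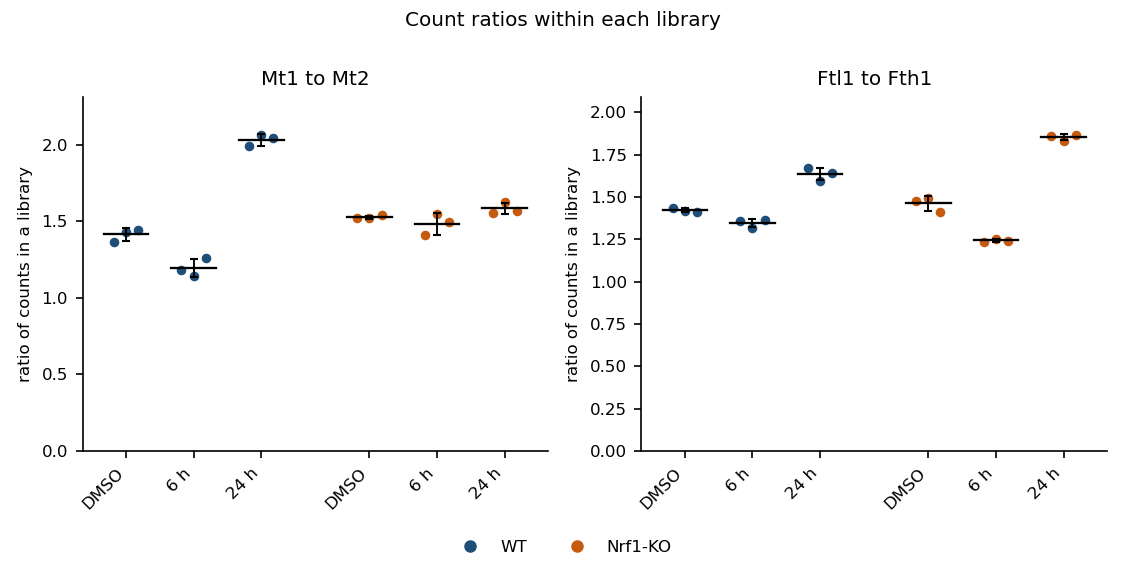
Ratio of Mt1 to Mt2 counts (left) and of Ftl1 to Fth1 counts (right) within each library (vertical axes, linear from 0). Points are libraries, long bars the mean and whiskers the SD of 3 libraries. The Mt1 to Mt2 ratio rose to 2.03 in WT cells at 24 h of CFZ and stood between 1.48 and 1.58 in the 3 Nrf1-KO group means.

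Mtf1, which encodes the zinc-sensing factor that binds MREs, rose at both times in both lines. It stood at 38.04, 41.22 and 39.71 CPM in WT DMSO, at 61.27, 49.30 and 54.30 at 6 h and at 82.34, 76.27 and 79.71 at 24 h. The levels in the Nrf1-KO line were 39.07, 35.77 and 38.52 CPM in DMSO, 48.65, 47.34 and 45.68 at 6 h and 77.81, 76.28 and 74.14 at 24 h. The 3 treatments did not overlap in either line. The log2 fold change was 0.47 at 6 h and 0.999 at 24 h in WT cells, and 0.32 and 1.01 in Nrf1-KO cells (adjusted p at most 2.38e-05). The interaction at 6 h was -0.15 (95% interval -0.32 to 0.02, adjusted p = 0.174). That at 24 h was 0.01 (-0.15 to 0.16, adjusted p = 0.949), with a negative sign under library size alone (-0.07). Without WT CFZ 6 h replicate 2, the library with the lowest level of its group, the interaction at 6 h passed the threshold (-0.25, adjusted p = 0.0156). Level differences between the lines were called at 6 h only, as -0.21 (adjusted p = 0.00308), beside -0.06 in DMSO (adjusted p = 0.366) and -0.06 at 24 h (adjusted p = 0.308).

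Slc30a1, the zinc exporter of the plasma membrane, moved in opposite directions at the 2 times. It stood at 32.10, 33.19 and 33.88 CPM in WT DMSO, at 37.54, 37.21 and 38.11 at 6 h and at 19.52, 20.27 and 21.51 at 24 h. Its Nrf1-KO levels were 27.05, 30.87 and 27.07 CPM in DMSO, 36.98, 32.13 and 33.81 at 6 h and 23.31, 21.75 and 20.93 at 24 h. Every 6 h library lay above, and every 24 h library below, the DMSO libraries of its line. The log2 fold change at 6 h was 0.19 in WT (adjusted p = 0.0045) and 0.29 in Nrf1-KO cells (adjusted p = 0.000133). At 24 h the values were -0.68 in WT (standard error 0.065, adjusted p = 2.61e-11) and -0.36 in Nrf1-KO cells (standard error 0.063, adjusted p = 4.43e-06). The rise in WT cells at 6 h was not past the threshold with upper-quartile scaling (0.08, adjusted p = 0.212) or library size alone (0.06, adjusted p = 0.386). The fall at 24 h was smaller in Nrf1-KO cells, with an interaction of 0.32 (95% interval 0.14 to 0.51, adjusted p = 0.00286), from a DMSO level that was lower by 0.23 (adjusted p = 0.0012). At 24 h the level itself differed by 0.10 (-0.05 to 0.24, adjusted p = 0.226). At 6 h it differed by -0.13 (adjusted p = 0.0706), and by -0.20 without Nrf1-KO CFZ 6 h replicate 1 (adjusted p = 0.0159). Mtf1 and Slc30a1 moved in opposite directions at 24 h in both lines, and their log2 CPM had a Pearson correlation of -0.69 over the 18 libraries, which share 6 treatments and a scaling.

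Both ferritin genes rose at 6 h and 24 h in both lines, and both rises at 6 h were smaller in Nrf1-KO than in WT cells. Fth1, whose product oxidises iron for storage, stood at 1246, 1205 and 1212 CPM in WT DMSO, at 1859, 1850 and 1793 at 6 h and at 2042, 2150 and 2156 at 24 h. Among Nrf1-KO libraries the values were 1102, 1115 and 1146 CPM in DMSO, 1481, 1469 and 1523 at 6 h and 1795, 1860 and 1887 at 24 h. Treatments did not overlap within a line, and the lines did not overlap within a treatment. Fth1 had a log2 fold change of 0.59 at 6 h (standard error 0.033) and 0.79 at 24 h (standard error 0.033) in WT cells, and 0.41 and 0.72 in Nrf1-KO cells (adjusted p at most 1.25e-12). The rise at 6 h was smaller in Nrf1-KO cells (interaction -0.18, adjusted p = 0.00275), and at 24 h the interaction was -0.07 (95% interval -0.17 to 0.02, adjusted p = 0.173). With library size alone the interaction at 24 h passed the threshold (-0.15, adjusted p = 0.0045). The Nrf1-KO level of Fth1 was the lower one in each treatment, by -0.12 on the log2 scale in DMSO (adjusted p = 0.00191), -0.30 at 6 h (adjusted p = 2.19e-09) and -0.20 after 24 h (adjusted p = 2.9e-06).

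Ftl1, the ferritin light chain, stood at 1789, 1710 and 1714 CPM in WT DMSO, at 2520, 2438 and 2445 at 6 h and at 3411, 3434 and 3540 at 24 h. The Nrf1-KO values were 1629, 1666 and 1620 CPM in DMSO, 1830, 1841 and 1894 at 6 h and 3337, 3407 and 3520 at 24 h. The lines did not overlap in DMSO or at 6 h, and overlapped at 24 h. Its log2 fold change at 6 h was 0.51 in WT cells (standard error 0.032, adjusted p = 3.45e-15) and 0.18 in Nrf1-KO cells (standard error 0.032, adjusted p = 1.05e-05), the latter 0.07 with library size alone (adjusted p = 0.0544). The interaction at 6 h was -0.33 (95% interval -0.42 to -0.23, adjusted p = 6.06e-07). At 24 h the fold changes were 0.99 and 1.06 (adjusted p at most 3.61e-24 in Nrf1-KO and 2.48e-23 in WT cells), and the interaction was 0.07 (-0.02 to 0.16, adjusted p = 0.195), with a negative sign under library size alone (-0.01). In DMSO Ftl1 was lower in Nrf1-KO cells (log2 difference -0.09, adjusted p = 0.0237). It lost that call without WT DMSO replicate 1 (-0.05, adjusted p = 0.296), Nrf1-KO DMSO replicate 1 (-0.08, adjusted p = 0.0566) or Nrf1-KO DMSO replicate 3 (-0.08, adjusted p = 0.073), and with upper-quartile scaling (-0.07), library size alone (-0.04), no expression filter (-0.07) and the compared groups only (-0.07). At 6 h it was lower by a larger amount (-0.41, adjusted p = 1.08e-12), and at 24 h the difference was -0.02 (-0.08 to 0.05, adjusted p = 0.637), with a positive sign under upper-quartile scaling (0.02).

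The ratio of Ftl1 to Fth1 counts moved the same way in both lines. The WT means were 1.42 ± 0.0116 (SD, n = 3) with the vehicle, 1.35 ± 0.0243 at 6 h and 1.64 ± 0.0367 after 24 h. Nrf1-KO means were 1.46 ± 0.0424, 1.24 ± 0.00901 and 1.85 ± 0.0178. The 3 treatments did not overlap in either line (exact permutation p = 0.1 for each pair, the smallest possible). The lines overlapped in DMSO (exact permutation p = 0.4) and not at 6 h or 24 h, where the log2 difference of the ratio was -0.11 and 0.18. Reads shared with the Ftl1 pseudogenes bear on this ratio, and their part was not tested.

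Tfrc, which encodes transferrin receptor 1, had the largest difference in DMSO between the lines among the 10 genes, and smaller differences under CFZ. It stood at 57.66, 68.61 and 61.39 CPM in WT DMSO, at 54.75, 57.67 and 60.85 at 6 h and at 166.8, 166.9 and 165.5 at 24 h. Nrf1-KO libraries had 118.3, 109.1 and 104.3 CPM in DMSO, 65.89, 60.08 and 49.28 at 6 h and 176.2, 173.6 and 174.6 at 24 h. In DMSO every Nrf1-KO library lay above every WT library, at 6 h the lines overlapped, and at 24 h the Nrf1-KO libraries lay just above the WT libraries. The 24 h libraries of both lines lay above all others. The log2 difference between Nrf1-KO and WT was 0.82 in DMSO (standard error 0.059, adjusted p = 3.7e-13), 0.04 at 6 h (95% interval -0.11 to 0.18, adjusted p = 0.653) and 0.07 at 24 h (-0.04 to 0.18, adjusted p = 0.231). The small difference at 24 h passed the threshold without the expression filter (0.09, adjusted p = 0.0497) and in a model of the compared groups alone (0.09, adjusted p = 0.0439). The difference at 6 h took a negative sign without WT CFZ 6 h replicate 1 (-0.01) or Nrf1-KO CFZ 6 h replicate 1 (-0.06).

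The CFZ response of Tfrc differed between the lines at both times. At 6 h Tfrc fell in Nrf1-KO cells (log2 fold change -0.89, standard error 0.063, adjusted p = 8.31e-14), and in WT cells the value was -0.11 (95% interval -0.25 to 0.02, adjusted p = 0.129). The value in WT cells passed the threshold with library size alone (-0.24, adjusted p = 0.00124), upper-quartile scaling (-0.22, adjusted p = 0.00333), no expression filter (-0.14, adjusted p = 0.0102) and without WT DMSO replicate 1 (-0.17, adjusted p = 0.0397). At 24 h Tfrc rose in both lines, by a log2 fold change of 1.41 in WT (adjusted p = 1.81e-20) and 0.67 in Nrf1-KO cells (adjusted p = 5.08e-13). The interaction at 6 h was -0.78 (95% interval -0.97 to -0.59, adjusted p = 3.67e-08) and -0.75 at 24 h (-0.91 to -0.59, adjusted p = 1.38e-09). From 6 h to 24 h the rise was 1.53 in WT and 1.56 in Nrf1-KO cells.

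Slc11a2, the divalent metal transporter that moves iron out of the endosome, had the largest change of the 10 genes and the largest interaction. It stood at 39.05, 39.21 and 39.38 CPM in WT DMSO, at 67.95, 72.02 and 70.04 at 6 h and at 157.8, 150.6 and 159.8 at 24 h. Nrf1-KO levels were 47.80, 49.52 and 48.62 CPM in DMSO, 73.37, 70.66 and 75.30 at 6 h and 93.59, 89.26 and 91.90 at 24 h. Every Nrf1-KO library lay above the WT libraries in DMSO and below them at 24 h, and the lines overlapped at 6 h. The log2 fold change at 6 h was 0.84 in WT (standard error 0.044, adjusted p = 3.04e-17) and 0.58 in Nrf1-KO cells (standard error 0.043, adjusted p = 1.7e-13). At 24 h the rises were 1.99 in WT (standard error 0.040, adjusted p = 6.72e-29) and 0.91 in Nrf1-KO cells (standard error 0.040, adjusted p = 6.25e-20). The interaction was -0.25 for 6 h (adjusted p = 0.00129) and -1.08 for 24 h (95% interval -1.20 to -0.97, adjusted p = 1.08e-16). The level in Nrf1-KO cells was higher by 0.31 in DMSO (adjusted p = 4.67e-07) and lower at 24 h (log2 difference -0.77, adjusted p = 1.35e-18). At 6 h the difference was 0.06 (-0.03 to 0.15, adjusted p = 0.234), past the threshold with upper-quartile scaling (0.11, adjusted p = 0.0297) and library size alone (0.13, adjusted p = 0.0136). Slc11a2 has isoforms with and without an IRE in the 3′ UTR, and counts per gene do not separate them.

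The mRNAs of the iron regulatory proteins had the smallest ranges of the 10, with a highest group mean 1.47 times the lowest for Ireb2 and 1.33 times for Aco1, beside 1.89 for Fth1, 2.11 for Ftl1 and 3.03 for Tfrc. Ireb2 stood at 137.5, 143.9 and 140.0 CPM in WT DMSO, at 151.2, 166.5 and 157.3 at 6 h and at 160.7, 163.7 and 160.5 at 24 h. The Nrf1-KO line had 128.7, 126.0 and 124.8 CPM in DMSO, 138.6, 138.2 and 128.9 at 6 h and 185.4, 182.2 and 188.5 at 24 h, above every other library. Its log2 fold change at 24 h was 0.20 in WT (adjusted p = 7.17e-06) and 0.55 in Nrf1-KO cells (adjusted p = 2.42e-15), and the interaction was 0.35 (95% interval 0.25 to 0.45, adjusted p = 6.66e-07). At 6 h it was 0.17 in WT cells (adjusted p = 0.000101) and 0.10 in Nrf1-KO cells (adjusted p = 0.0181), the latter with a negative sign under library size alone (-0.01). The call in Nrf1-KO cells at 6 h was lost without Nrf1-KO DMSO replicate 3 (adjusted p = 0.0677), Nrf1-KO CFZ 6 h replicate 1 (adjusted p = 0.0885) or Nrf1-KO CFZ 6 h replicate 2 (adjusted p = 0.0797), and with RLE scaling (0.08), upper-quartile scaling (0.03), DESeq2 (0.08) and no expression filter (0.05). Upper-quartile scaling ended the calls in WT cells at 6 h (0.07, adjusted p = 0.117) and 24 h (0.07, adjusted p = 0.0951), and library size alone that at 6 h (0.04, adjusted p = 0.318). Ireb2 was lower in Nrf1-KO than in WT cells in DMSO (-0.15, adjusted p = 0.000686) and at 6 h (-0.22, adjusted p = 7.28e-06). After 24 h the Nrf1-KO level was the higher one (0.20, adjusted p = 1.36e-05).

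Aco1 stood at 88.80, 88.51 and 90.63 CPM in WT DMSO, at 99.27, 96.63 and 94.37 at 6 h and at 93.52, 88.68 and 90.43 at 24 h. The Aco1 levels of the Nrf1-KO line were 83.85, 79.12 and 75.80 CPM in DMSO, 104.3, 103.7 and 104.1 at 6 h and 82.96, 77.00 and 74.21 at 24 h. It was thus highest at 6 h in both lines and overlapped DMSO at 24 h. The log2 fold change at 6 h was 0.39 in Nrf1-KO cells (standard error 0.042, adjusted p = 1.15e-09) and 0.12 in WT cells (adjusted p = 0.0136), the latter -0.02 with library size alone (adjusted p = 0.736) and not past the threshold with upper-quartile scaling (0.01), DESeq2 (0.09) or no expression filter (0.09). The interaction at 6 h was 0.28 (95% interval 0.15 to 0.40, adjusted p = 0.000353). At 24 h the values were 0.02 in WT (adjusted p = 0.628) and -0.02 in Nrf1-KO cells (adjusted p = 0.586), the first negative with library size alone (-0.08) and upper-quartile scaling (-0.12, adjusted p = 0.0104). From 6 h to 24 h Aco1 fell in Nrf1-KO cells (-0.42, adjusted p = 2.87e-10) and in WT cells (-0.09, adjusted p = 0.0476). The fall in WT cells was not past the threshold with RLE scaling, library size alone or DESeq2, or without WT CFZ 24 h replicate 2 (adjusted p = 0.176) or replicate 3 (adjusted p = 0.0991). In Nrf1-KO cells at 24 h Aco1 was called lower than in DMSO with library size alone (-0.21, adjusted p = 3.84e-05), with upper-quartile scaling (-0.13, adjusted p = 0.0035) and without Nrf1-KO CFZ 24 h replicate 1 (-0.10, adjusted p = 0.0365). Aco1 was lower in Nrf1-KO than in WT cells in DMSO (-0.17, adjusted p = 0.000681) and at 24 h (-0.22, adjusted p = 3.61e-05). At 6 h it was higher (0.10, adjusted p = 0.0348), a call that was kept without WT CFZ 6 h replicate 1 and lost without any other library of the 2 groups (adjusted p from 0.0633 to 0.173), and lost without the expression filter (0.09, adjusted p = 0.0841).

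Across the 10 genes, the order of the 6 group means was the same for Fth1, Ftl1 and Mtf1, from Nrf1-KO DMSO as the lowest to WT at 24 h as the highest. Some neighbours in this order overlapped. They were the lines in DMSO and at 24 h for Mtf1, and the lines at 24 h for Ftl1. For Fth1 they were WT at 6 h and Nrf1-KO at 24 h. The highest group mean was 3.98 times the lowest for Slc11a2, 3.03 times for Tfrc, 2.11 times for Ftl1, 2.1 times for Mtf1 and between 1.33 (Aco1) and 1.92 times (Mt1) for the others. The log2 CPM of Mtf1 and Ftl1 had a Pearson correlation of 0.98 over the 18 libraries, those of Mtf1 and Fth1 0.92, and those of Tfrc and Slc30a1 -0.94. Mt1 and Mt2 had 0.71. The libraries share 6 treatments, so these values describe the treatment pattern. By the same measure over 10250 other genes with a mean of at least 50 counts, those most like Fth1 included Riok3 (0.996), a kinase, and Prkcd (0.991), protein kinase C delta. In WT cells Riok3 went from 66.67 ± 1.32 CPM (SD, n = 3) over 182.1 ± 1.88 at 6 h to 261.0 ± 3.04 after 24 h. Those most like Mt1 were Sepp1 (0.966), which encodes the selenium carrier selenoprotein P, Rnf167 (0.957), a ubiquitin ligase, and Casp6 (0.955), a caspase. Those most like Tfrc were Tctn2 (0.968), a protein of the ciliary transition zone, Dazap2 (0.960) and Fgfbp3 (0.959).

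Other genes of metal handling were taken as lists, of which 64 of 83 genes in the table were tested. At 24 h of CFZ in WT cells 21 of the 64 were higher and 30 lower, where 43.2% of all tested genes were higher and 40.5% lower, with a median log2 fold change of -0.09 beside 0.02 over all genes. In Nrf1-KO cells 26 were higher and 31 lower (44.4% and 41.1% of all genes), with a median of -0.07 beside 0.03. These 4 shares are the background for the counts of each list below, most of which hold too few genes to be read against them. At 6 h, 12 of the 64 interactions were called more positive and 12 more negative, near the shares over all genes (19.8% and 18.4%). At 24 h, 18 were more positive, near the share over all genes (29.7%), and 27 more negative, above it (30.0%). In each list the genes named are those with the largest called change in each direction at 24 h in either line, among genes with a mean of at least 50 counts. These lists are described by their counts alone, with no test of a list.

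**Figure D4:**
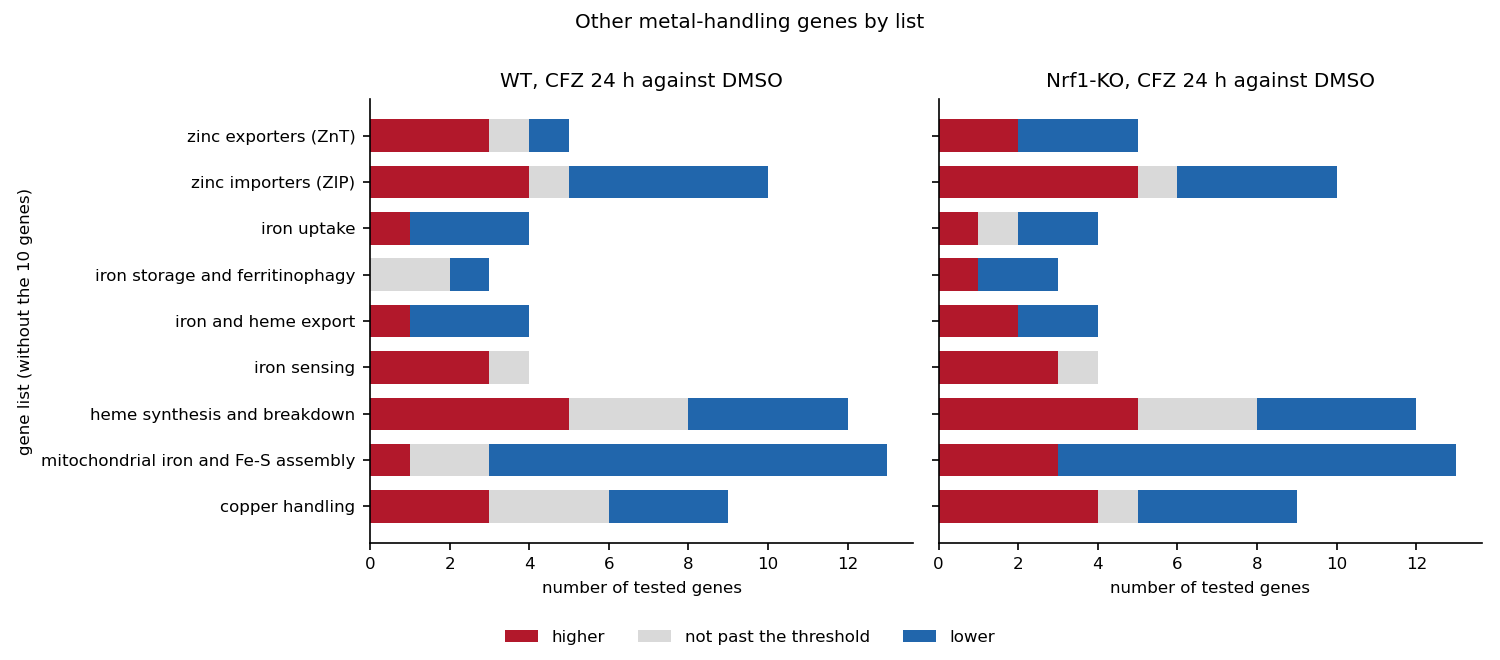
Number of tested genes (horizontal axis) that were higher, lower or not past the threshold at 24 h of CFZ against DMSO in WT (left) and Nrf1-KO cells (right), for 9 lists of metal-handling genes without the 10 described above. Of the 13 genes of mitochondrial iron and Fe-S assembly, 10 were lower in each line, where 40.5% of all tested genes were lower in WT and 41.1% in Nrf1-KO cells.

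Among the zinc transporters, 3 of the 5 tested SLC30 zinc exporters were higher and 1 lower in WT cells at 24 h. In Nrf1-KO cells 2 were higher and 3 lower (43.2% and 40.5% of all genes in WT, 44.4% and 41.1% in Nrf1-KO cells). Slc30a6, which loads the Golgi, rose by 0.22 in WT (adjusted p = 0.000787) and 0.29 in Nrf1-KO cells (adjusted p = 1.81e-05). Slc30a7, also of the Golgi, fell by 0.10 in WT (adjusted p = 0.0429) and by 0.12 in Nrf1-KO cells (adjusted p = 0.0122). Slc30a9, the mitochondrial zinc exporter, fell by 0.43 in Nrf1-KO cells (adjusted p = 1.6e-10), had a value of -0.09 in WT cells (adjusted p = 0.0881), and had an interaction of -0.35 (adjusted p = 2.31e-05). Of the 10 tested SLC39 genes, which bring zinc into the cytosol, 4 were higher and 5 lower in WT cells, and 5 were higher and 4 lower in Nrf1-KO cells. Slc39a8 (ZIP8), which also carries manganese and iron, rose from 21.68 ± 1.41 to 47.28 ± 1.43 CPM in WT cells at 24 h (log2 fold change 1.13, adjusted p = 2.1e-18) and from 22.59 ± 0.888 to 53.61 ± 1.97 in Nrf1-KO cells (1.24, adjusted p = 2.33e-20), with SDs over 3 libraries. Slc39a13 (ZIP13), a zinc transporter of the early secretory pathway, fell from 57.69 ± 3.12 to 16.97 ± 0.936 CPM in WT (-1.77, adjusted p = 2.69e-22) and from 73.76 ± 3.15 to 18.59 ± 1.59 in Nrf1-KO cells (-1.99, adjusted p = 8.4e-25).

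Among the iron lists, 1 of 4 tested uptake genes was higher and 3 lower in WT cells at 24 h. In Nrf1-KO cells 1 was higher and 2 lower. Over all genes 43.2% were higher and 40.5% lower in WT, and 44.4% and 41.1% in Nrf1-KO cells. The gene called higher in WT cells was Slc11a1, near the floor with 82 counts over the 18 libraries and at most 17 in any library. Steap2, a metalloreductase, fell from 285.8 ± 3.94 to 132.6 ± 1.6 CPM in WT (SD, n = 3) and from 404.9 ± 7.09 to 123.5 ± 4.33 in Nrf1-KO cells, with an interaction of -0.61 (adjusted p = 4.67e-12). Its relative Steap1 rose by 0.25 in Nrf1-KO cells (adjusted p = 1.55e-05) and fell by 0.13 in WT cells (adjusted p = 0.02). Of 3 tested genes of iron storage and ferritin turnover, 1 was lower in WT cells, and 1 was higher and 2 lower in Nrf1-KO cells. Pcbp1 and Pcbp2 encode chaperones that bring iron to ferritin, and in Nrf1-KO cells at 24 h Pcbp1 fell (-0.52, adjusted p = 2.26e-15) and Pcbp2 rose (0.47, adjusted p = 3.67e-15). In WT cells Pcbp1 fell by 0.08 (adjusted p = 0.0237) and Pcbp2 had a log2 fold change of -0.03 (adjusted p = 0.383). Of 4 tested genes of iron and heme export, 1 was higher and 3 lower in WT cells, and 2 were higher and 2 lower in Nrf1-KO cells. Cp, the copper ferroxidase ceruloplasmin, fell from 27.43 ± 1.1 to 2.144 ± 0.537 CPM in WT (log2 fold change -3.62, standard error 0.133) and from 32.39 ± 3.28 to 8.0 ± 1.19 in Nrf1-KO cells (-2.05, standard error 0.092), with an interaction of 1.58 (adjusted p = 2.55e-08). The heme exporter Flvcr1, listed as Mfsd7b, rose by 0.74 in WT (adjusted p = 9.93e-13) and 0.31 in Nrf1-KO cells (adjusted p = 5.17e-05), with an interaction of -0.43 (adjusted p = 9.55e-05).

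Of 4 tested iron-sensing genes besides Ireb2 and Aco1, 3 were higher in each line at 24 h and none was lower, where 43.2% of all genes were higher in WT and 44.4% in Nrf1-KO cells. Hfe, whose product binds the transferrin receptor, rose in WT cells from 4.709 ± 0.39 to 12.25 ± 0.847 CPM (SD, n = 3, log2 fold change 1.36, adjusted p = 2.09e-13). The Nrf1-KO means were 1.758 ± 0.187 CPM in DMSO and 1.81 ± 0.0888 at 24 h (0.06, adjusted p = 0.798), with an interaction of -1.30 (adjusted p = 8.83e-06). Herc2, a ubiquitin ligase, rose by 0.48 in WT (adjusted p = 4.31e-08) and 0.52 in Nrf1-KO cells (adjusted p = 1.68e-08). Of the 12 genes of heme synthesis and breakdown, 5 were higher and 4 lower in each line, near the background. Hmox1, the heme oxygenase that frees iron from heme, rose from 67.79 ± 2.98 to 1463 ± 22.7 CPM in WT and from 48.57 ± 3.53 to 923.1 ± 14.3 in Nrf1-KO cells, with an interaction of -0.19 (adjusted p = 0.00556).

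Of the 13 genes of mitochondrial iron import and Fe-S assembly, 1 was higher and 10 lower in WT cells (43.2% and 40.5% of all genes), and 3 were higher and 10 lower in Nrf1-KO cells (44.4% and 41.1%). The list's median log2 fold change was -0.41 in WT and -0.46 in Nrf1-KO cells, beside 0.02 and 0.03 over all genes. The gene with the largest rise was Slc25a37, which encodes the mitochondrial iron importer mitoferrin 1, from 40.68 ± 4.41 to 93.85 ± 5.52 CPM in WT (SD, n = 3) and from 52.63 ± 3.5 to 106.0 ± 2.22 in Nrf1-KO cells. Its log2 fold change was 1.21 in WT (adjusted p = 7.7e-19) and 1.01 in Nrf1-KO cells (adjusted p = 1.27e-17). Nfu1, which carries Fe-S clusters to target proteins, fell by 0.92 in WT (adjusted p = 1.55e-13) and 1.40 in Nrf1-KO cells (adjusted p = 3.12e-17). Bola3, which acts with it, fell by 0.86 (adjusted p = 5.67e-10) and 1.64 (adjusted p = 1.32e-16), with an interaction of -0.78 (adjusted p = 1.44e-05).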

How the data were processed

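Libraries were made by the authors with a stranded mRNA kit, read from both ends and processed in RNA Express, which joins STAR and DESeq2. They deposited raw counts of reads per gene symbol, without normalization. Genome build, annotation, tool versions and use of strand are not given in the sources used here. A share of 0.252% of counts lay in 27 rows whose symbols read as dates, which were kept.

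Genes were kept by filterByExpr of edgeR 4.0.16 (R 4.3.3) at a count of 10 and a total of 15, scaled by TMM and fitted by quasi-likelihood in 1 model with a mean for each of the 6 groups (18 libraries). P-values were adjusted by the Benjamini-Hochberg method over the 11762 genes tested, with a threshold of 0.05. The standard error is the size of the log2 fold change divided by the square root of F. There were 11 comparisons. Levels are TMM-scaled CPM. Ratios were compared with exact permutation tests (two-sided, SciPy 1.17.1). The tests were also run on simulated counts in which all genes had the same spread. That setting is simpler than these data, so it does not show how the tests behave on them.

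The genes, gene lists and naming rule were chosen with earlier results of these data known. Named genes are the 10 members, in each list the called genes with a mean of at least 50 counts and the largest change in each direction at 24 h in either line, and the 3 genes most correlated with Mt1, Fth1 and Tfrc. Some genes that this rule names are not reported here. Alternatives were RLE, upper-quartile and library-size scaling, DESeq2 1.42.0, a model of the compared groups only, no expression filter, a minimum fold of 2, blocking on replicate number, and leaving out every library in turn. No pair of replicates differed by less than the sampling noise (chi-square per degree of freedom 1.438 to 8.469). P-values measure the spread between these libraries. Coordinates and transcripts came from GENCODE M21 (GRCm38) and promoter windows from RefSeq (GRCm38.p6), with 9 of the 10 genes matched, and these need not be the annotation the authors used.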

Additional observations from a re-analysis of the deposited data

Results flagged for a closer look

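Of the 20 interactions of the 10 genes, 11 passed the threshold, so that the effect of CFZ was called different in the 2 lines by the test of the difference itself. They were 6 of 10 at 6 h, where 19.8% of all tested genes were called more positive and 18.4% more negative. At 24 h they were 5 of 10, near the share over all genes, of which 29.7% were called more positive and 30.0% more negative. At 6 h the interaction was -0.78 for Tfrc, -0.33 for Mt2, -0.33 for Ftl1, -0.25 for Slc11a2 and -0.18 for Fth1, and 0.28 for Aco1. At 24 h it was -1.08 for Slc11a2 and -0.75 for Tfrc, and 0.57 for Mt2, 0.35 for Ireb2 and 0.32 for Slc30a1. Mt2 was the one gene of the 10 whose interaction was called with opposite signs at the 2 times. For Tfrc the DMSO libraries of the lines were apart (0.82) while the CFZ libraries were not past the threshold (0.04 and 0.07). For Slc11a2 at 24 h both the DMSO level (0.31) and the level under CFZ (-0.77) differed. Both interactions of a gene share their DMSO libraries across the 2 times.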

How the results depend on the processing

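In a fit with a replicate block the members called were 9, 9, 9, 10, 9, 10, 9, 7, 6, 6 and 5 in the 11 comparisons, and no call of a member changed. Deviations of same-numbered libraries had correlations from -0.066 to 0.171 (mean 0.0252, 7 of 45 over 0.1). Whether the replicate numbers mark a shared day or batch was not tested. With a minimum fold of 2 in edgeR the members called were 0, 2 and 2 in WT cells (6 h, 24 h, 24 h against 6 h), 0, 2 and 1 in Nrf1-KO cells, 0, 0 and 0 between the lines, and 0 and 1 for the interactions at 6 h and 24 h, so a count of 0 there stands beside 9, 10, 9, 8, 6 and 6 members with an unadjusted p under 0.05 and 8, 9, 9, 6, 6 and 6 called by DESeq2. Leaving out a library left between 4 and 6 of the 7 calls between the lines at 6 h, 4 without WT CFZ 6 h replicate 2. Signs reversed in the values that follow. With library size alone these were Aco1 in WT cells at 6 h (-0.016) and 24 h (-0.083), Ireb2 in Nrf1-KO cells at 6 h (-0.010) and the interactions at 24 h of Mtf1 (-0.071) and Ftl1 (-0.010). With upper-quartile scaling they were Aco1 in WT cells at 24 h (-0.115) and Ftl1 between the lines at 24 h (0.024), and Aco1 in WT cells at 24 h was -0.034 without the expression filter and -0.011 in the compared groups only. Over libraries left out, Aco1 at 24 h ran from -0.014 to 0.039 in WT and from -0.099 to 0.011 in Nrf1-KO cells, Ireb2 in WT cells between 6 h and 24 h from -0.043 to 0.036, the interaction of Mtf1 at 24 h from -0.026 to 0.037, and between the lines Tfrc at 6 h from -0.059 to 0.126 and Ftl1 at 24 h from -0.029 to 0.017. The causes were not tested. Of 110 values of single genes, RLE scaling kept the direction and the side of the threshold in 108, the compared groups only in 107, DESeq2 in 106, no filter in 102, upper-quartile scaling in 96 and library size alone in 92. Depth limits genes of low level, such as Hfe, at 1.08 to 13.2 CPM over all libraries.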

Other observations

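Copper handling was examined as a neighbouring list, since ceruloplasmin and the metallothioneins also bind copper. Of its 9 tested genes, 3 were higher and 3 lower in WT cells at 24 h of CFZ, and 4 were higher and 4 lower in Nrf1-KO cells, near or below the shares over all genes (43.2% higher and 40.5% lower in WT, 44.4% and 41.1% in Nrf1-KO cells). Sod1, the cytosolic copper and zinc superoxide dismutase, stood in WT cells at a mean of 110.0 ± 3.84 CPM (SD, n = 3) with the vehicle, 208.9 ± 5.64 at 6 h and 430.9 ± 13 after 24 h. In Nrf1-KO cells it stood at 124.7 ± 1.66, 135.3 ± 2.02 and 188.2 ± 9.34 CPM. Both interactions were negative, -0.81 for 6 h (adjusted p = 2.36e-13) and -1.38 for 24 h (adjusted p = 4.83e-20, edgeR's quasi-likelihood test). Slc31a1, the copper importer of the plasma membrane, rose by 0.72 in WT (adjusted p = 5.53e-18) and 0.85 in Nrf1-KO cells (adjusted p = 4.02e-20). Cox17, which brings copper to cytochrome c oxidase, fell from 8.615 ± 1.17 to 2.944 ± 0.743 CPM in WT and from 12.35 ± 0.882 to 3.446 ± 0.171 in Nrf1-KO cells.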
